A study of Mus musculus with 42 samples.

Results

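The transcriptome of differentiating iPax7 cells, taken 3 days after doxycycline (Dox) withdrawal, was set against that of satellite cells taken directly from mouse muscle. iPax7 is a mouse embryonic stem cell line that carries a Dox-inducible Pax7 transgene. Its myogenic precursors were sorted as PDGFαR+Flk-1- cells from embryoid bodies, expanded in serum-containing medium with FGF and Dox, and then kept in that medium without Dox for 3 days (-Dox, 2 libraries). Satellite cells were sorted on the fluorescent Pax7-ZsGreen reporter from skeletal muscle and used without culture (3 libraries), and the age and sex of the mice are not given in the sources used here. Hind limb muscle is named as the source of the satellite cells of the ATAC-seq, while the muscles taken for RNA-seq are not named. These 5 libraries are all the -Dox and satellite cell libraries among the 8 RNA-seq libraries of the series. The other 3 are iPax7 cells kept in Dox (+Dox), which entered the filter, the scaling and the estimate of the spread. All 24466 genes of the count files were considered and 14836 passed the filter on low counts. Of these, 58 had no count in -Dox or satellite cells. Tissue and culture, origin from an animal or from embryonic stem cells, and sorting on a Pax7 reporter or on PDGFαR all differ between the groups, as may library preparation, and these cannot be told apart.

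Satellite cells are the stem cells of skeletal muscle, which lie between the fibre and its basal lamina and are marked by the paired-box factor Pax7. In adult muscle most of them are quiescent, a state held in part by Notch signalling, and the isolation of tissue itself starts an early stress and activation response. On activation they express Myf5 and Myod1 and divide. Myog and the Mef2 factors then switch on the genes of the contractile apparatus as the cells leave the cell cycle and fuse into multinucleated fibres.

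The -Dox libraries held 51125646 and 52793638 counts on genes and the satellite cell libraries 39010958 to 43811197. Reads set aside as not uniquely aligned were 7.51 to 7.54% of the total in -Dox and 23.6 to 30.7% in satellite cells, and the 20 most abundant genes took 11.5 to 11.9% against 14.3 to 18.9% of counts. The correlation of log2 counts across genes was 0.944 between the -Dox libraries, 0.868 to 0.883 among the satellite cell libraries and 0.641 to 0.651 between the groups, genes not being independent replicates. The satellite cell libraries differed more among themselves, and 29 genes had at most 3 counts in 1 of them and at least 500 in another, which was true of 0 genes in the -Dox pair. Nothing in the labels says whether replicates came from separate cultures or animals, so the tests measure the spread between these libraries, which may be technical.

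Of the 14836 genes tested, 2548 (17.2%) were at least 2-fold higher in -Dox and 3031 (20.4%) at least 2-fold higher in satellite cells, by the quasi-likelihood test of edgeR with Benjamini-Hochberg adjusted p below 0.05. A further 617 genes (4.16%) had a 95% interval of the difference that lay wholly within 2-fold, and the remaining 8640 fell in neither class. The 2 populations thus differed in more genes than could be shown to be alike, but the median half-width of the interval was 1.32 on the log2 scale, so for a gene of typical spread a 2-fold difference was not detectable with these libraries. The differences were larger on the satellite cell side, with a median log2 fold change of -3.12 against 2.25 on the -Dox side. A level at least 16-fold higher was seen for 510 genes in -Dox and 1204 genes in satellite cells, counting a group without a count as 3 counts per library. Genes higher in -Dox took 42.3% of the counts of -Dox cells and 7.26% of those of satellite cells, and genes higher in satellite cells took 9.59% and 49.8%. The numbers of calls rested on both -Dox libraries, since 1633 and 1571 genes were called higher and lower in -Dox without -Dox replicate 1, and 1764 and 1618 without -Dox replicate 2. Without them the within 2-fold class shrank to 80 and 75 genes, and it held 395 genes without +Dox replicate 2.

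**Figure D1:**
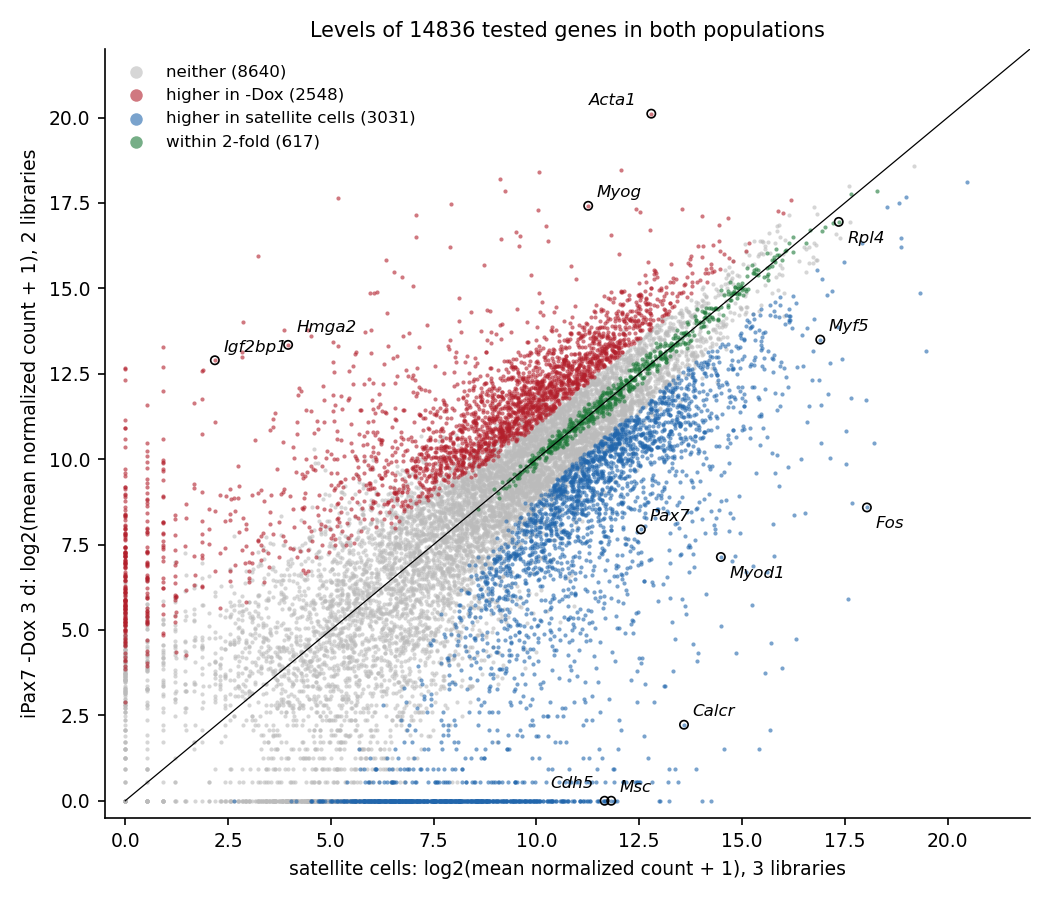
Mean level of each tested gene in satellite cells (x axis, 3 libraries) and in -Dox cells (y axis, 2 libraries), both as log2 of the normalized count plus 1. Points are coloured by class, with 2548 genes higher in -Dox, 3031 higher in satellite cells and 617 within 2-fold, and Myog, Acta1, Hmga2 and Igf2bp1 lie above the diagonal while Pax7, Myod1, Msc, Calcr, Fos and Cdh5 lie below it.

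Markers of other muscle-resident cells were far higher in the satellite cell libraries. Endothelial markers summed to 67263, 67864 and 66079 normalized counts per satellite cell library and 3001 and 2093 per -Dox library. Of 20 tested members 19 (95%) were called higher in satellite cells, beside 20.4% of all tested genes. The most abundant members were Cd36 (17231, 15320 and 14153 against 2513 and 1592) and Fabp4 (16537, 12607 and 13965.5 against 31.2 and 14.8). Cd36 gave most of the -Dox sum. Cdh5, the endothelial cadherin, stood at 2601, 3839 and 3259 normalized counts in satellite cells and at 0 in both -Dox libraries, at least 1170.1-fold higher. Kdr, an endothelial VEGF receptor, was at 1164, 2115 and 1669.7 against 0.919 and 0, and the platelet and endothelial adhesion gene Pecam1 at 4515, 6702 and 4041 against 0 and 21.2. Both were therefore present at like levels in all 3 satellite cell libraries and close to absent in -Dox.

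The same held for tendon and interstitial genes. Tenocyte markers summed to 391738, 180176 and 304569 normalized counts in satellite cells against 1554 and 1409.5 in -Dox, with 7 of 10 members called. Most of this sum was of 2 genes that are not particular to tendon, the immediate early gene Egr1 and Chodl (142064, 38695 and 62103 against 49.6 and 1.85), which quiescent satellite cells are known to express. Together they made 89.6 to 93.2% of it, and without them the sums were 26481, 18742 and 24969 against 492 and 562. Fibroblast and adipogenic progenitor markers summed to 424505, 299933 and 200887 against 14304 and 20508, with 14 of 20 called. The broadly expressed actin-binding gene Gsn gave 46.4 to 67.3% of the satellite cell sums, which were 138623, 160648 and 90688 without it, against 8315 and 10814 in -Dox. Haematopoietic markers were lower and uneven, with sums of 53438, 15528 and 35248 against 668 and 1031 and 17 of 22 called (10 without -Dox replicate 1). Ptprc, the pan-leukocyte phosphatase, stood at 392, 331 and 584 and 0 in both -Dox libraries, and Ngp, a neutrophil granule protein, at 21923, 2107 and 466 and 0. Satellite cell replicate 1 was the highest for the haematopoietic sum. The calls made 70% of the tenocyte, 70% of the fibroblast and 77.3% of the haematopoietic list, beside 20.4% of all tested genes. Of 15 tested smooth muscle and pericyte markers 9 (60%) were called higher in satellite cells, but their sum was not higher there (53429.7, 73973 and 56279.9 against 79766 and 80463). Acta2, a smooth muscle actin that embryonic skeletal muscle also makes, was the member called higher in -Dox (53987 and 53844 against 3707, 14637 and 11155; log2 fold change 2.45 ± 0.52, adjusted p = 0.0053), while the pericyte gene Rgs5 was at 45.0 and 40.6 against 10275, 18483 and 9683.

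**Figure D2:**
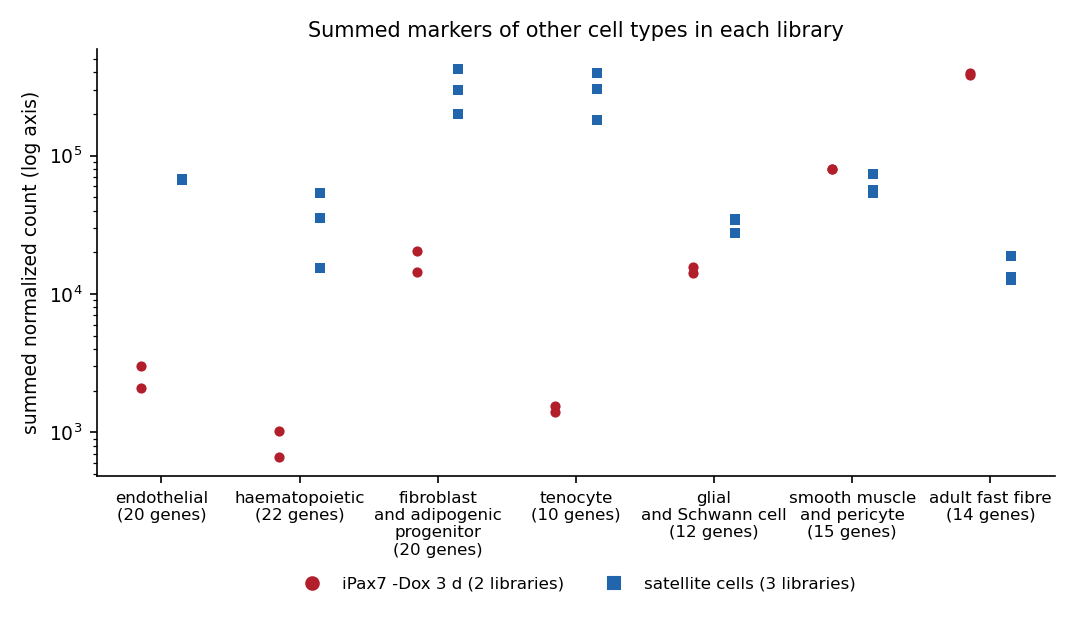
Summed normalized counts of 7 marker lists in each of the 2 -Dox and 3 satellite cell libraries, on a log axis. The endothelial, haematopoietic, fibroblast and tenocyte sums of every satellite cell library lie above those of both -Dox libraries, the adult fast fibre sums lie below them, and the smooth muscle and pericyte sums lie within 2-fold of each other.

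These are bulk libraries, in which more cells of a type and more RNA per cell cannot be told apart. The part that such cells take in any of the differences below was not tested, and the marker sums above apply beside every group of genes that other muscle-resident cells also express.

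The transcription factors of the myogenic lineage differed between the populations in both directions. Pax7 itself was at 221 and 269.5 normalized counts in -Dox, at 8504, 3926 and 5456 in satellite cells and at 12759, 14129.7 and 11610.2 in the +Dox libraries, which carry the induced transgene (log2 fold change -4.60 ± 0.41, adjusted p = 7.9e-05, for -Dox over satellite cells with its SE). Each satellite cell library lay above both -Dox libraries, and reads from the transgene cannot be told apart from those of the endogenous gene. Myod1, the determination factor, had 20392, 26074 and 22421 normalized counts in satellite cells against 115 and 164 in -Dox (log2 fold change -7.36 ± 0.57, adjusted p = 4.0e-05). Myf5, which acts with Myod1 and is present in most satellite cells, was still expressed in -Dox, with 12411 and 10748 normalized counts against 122890, 104725 and 140603 (log2 fold change -3.41 ± 0.33, adjusted p = 1.1e-04). Msc (musculin), a repressor of Myod1 activity, gave no count in -Dox against 2154, 5371 and 3322 in satellite cells, at least 1309-fold higher.

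Myog, the factor that drives terminal differentiation, ran the other way, at 160807 and 189119 normalized counts in -Dox and 2416, 2587 and 2353 in satellite cells (log2 fold change 6.16 ± 0.26, adjusted p = 3.7e-06). Its partner Mef2c was at 50818 and 51739 and 1435, 1784 and 2269.8 (log2 fold change 4.81 ± 0.50, adjusted p = 1.6e-04). Differentiating iPax7 cells thus had far more Myog and far less Myod1 transcript than satellite cells. Of the 22 tested regulators 3 were called higher in -Dox and 10 higher in satellite cells (8 without satellite cell replicate 3). These are 13.6 and 45.5%, beside 17.2 and 20.4% of all tested genes. The 3 were Myog, Mef2c and the transcriptional cofactor Eya2 (3.58 ± 0.80, adjusted p = 0.007). Among the 10 were Id2 and Id3, inhibitors of E-protein binding, with Id3 at 13583 and 15708 against 159584, 47147 and 85933 (log2 fold change -2.74 ± 0.52, adjusted p = 0.003). Pax3, the paralog of Pax7, passed at -3.31 ± 1.01 (adjusted p = 0.027) and lost its call without -Dox replicate 1 (adjusted p = 0.12) or satellite cell replicate 3 (adjusted p = 0.071).

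Several regulators were at like levels or were not called. Tcf12, the E-protein partner of the myogenic factors, lay within 2-fold, at 3078 and 2814 in -Dox and 2732, 3048 and 3705 in satellite cells. Six4 (770.1 and 1314 against 1082, 877 and 1370.3) overlapped between the groups. Mef2a (6318 and 7499 against 3969, 5938 and 4803) was higher in each -Dox library than in any satellite cell library, but was not called. Their intervals were too wide to place them within 2-fold. Myf6, the late factor of mature fibres, was low in both, at 162 and 63.7 and 299, 96.5 and 98.9.

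**Figure D3:**
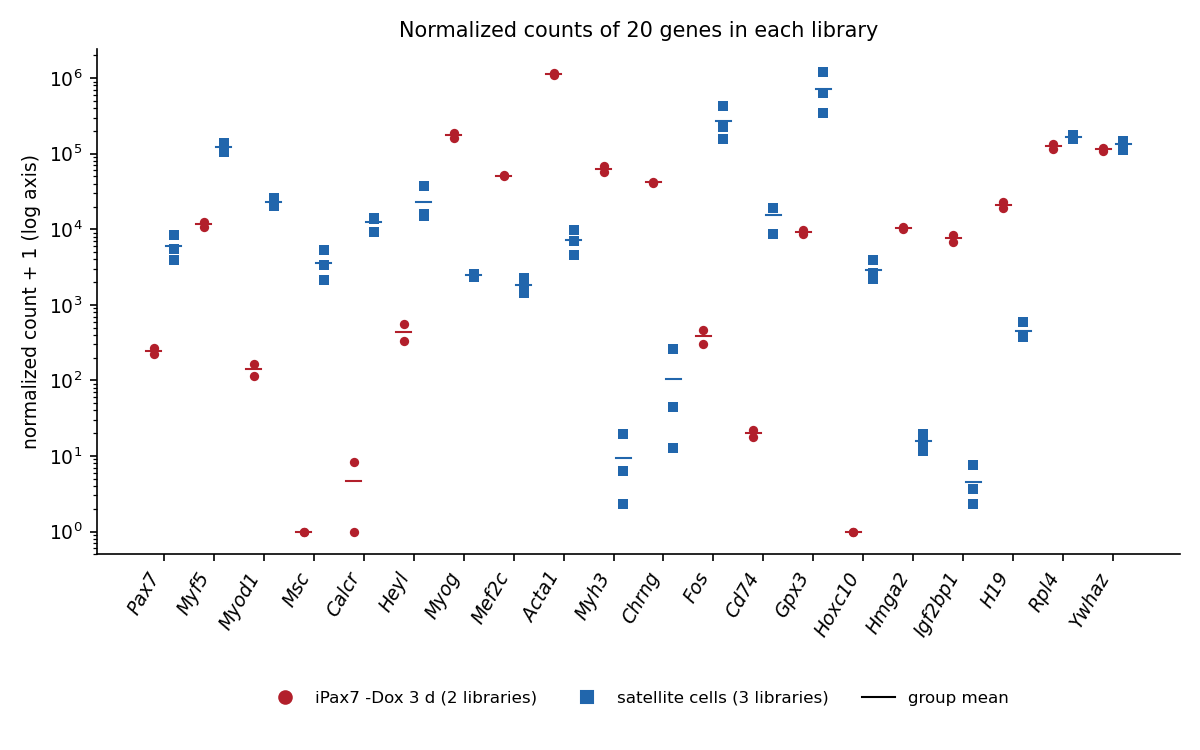
Normalized count plus 1 (log axis) of 20 genes in each of the 2 -Dox and 3 satellite cell libraries, with a bar at each group's mean. Myog, Mef2c, Acta1, Myh3, Chrng, Hmga2, Igf2bp1 and H19 are higher in every -Dox library, Pax7, Myf5, Myod1, Msc, Calcr, Heyl, Fos, Cd74, Gpx3 and Hoxc10 are lower, and Rpl4 and Ywhaz lie close together.

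Open chromatin at the genes of these factors was read from the deposited ATAC-seq peak lists, 1 list per population, as the fold enrichment of the strongest peak within 1 kb of a start site. Over the 11273 tested genes with a peak in both lists the median ratio of the -Dox to the satellite cell value was 1.72 (1.79 over those within 2-fold), so the values of the 2 lists are not on 1 scale. Pax7 and Myod1 had a peak in satellite cells (14.6 and 12.9) and none listed in -Dox. In -Dox the Pax7 window overlapped H3K27me3, the mark of Polycomb repression. That of Myod1 did not, and overlapped H3K27Ac, the mark of active promoters, although its transcript was low there. Myf5 had a peak in both (9.90 in -Dox and 30.5 in satellite cells). Myog had a peak of 3.61 in -Dox only, and its window overlapped H3K27Ac, although the 250 bases printed below did not. The satellite cell list holds fewer regions (73512 against 145880), so a peak this weak may be unlisted there. The promoters of the genes with the most opposed levels are given here as the 250 bases before the RefSeq start, placed by exact match in build NCBIM37 (mm9), with capitals marking the E-boxes (CANNTG, read on either strand) to which myogenic factors bind. Myog, on the plus strand of chr1:136186331-136186580, holds E-boxes 138 and 12 bases before the start, and Pax7, on the minus strand of chr4:139388884-139389133, holds none in this window.
Myog: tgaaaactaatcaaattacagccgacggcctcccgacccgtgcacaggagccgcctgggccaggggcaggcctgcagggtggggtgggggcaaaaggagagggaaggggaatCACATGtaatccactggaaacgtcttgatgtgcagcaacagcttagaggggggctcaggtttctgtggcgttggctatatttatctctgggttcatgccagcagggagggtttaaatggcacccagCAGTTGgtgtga
Pax7: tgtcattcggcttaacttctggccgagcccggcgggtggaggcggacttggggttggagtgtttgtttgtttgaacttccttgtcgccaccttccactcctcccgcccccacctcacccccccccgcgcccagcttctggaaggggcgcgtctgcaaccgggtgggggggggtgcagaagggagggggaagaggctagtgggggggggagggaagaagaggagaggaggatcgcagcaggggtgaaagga
A CANNTG was found in 62.6% of the promoters of all tested genes with an entry in the table, so its presence or absence in a single promoter is a description only.

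Most of the genes that mark quiescent satellite cells were lower in -Dox cells. Of 32 tested members 22 were called higher in satellite cells and 1, Il18rap with at most 34.0 normalized counts in any of the 5 libraries, was called higher in -Dox, a call lost without +Dox replicate 1, +Dox replicate 2, +Dox replicate 3, -Dox replicate 1, satellite cell replicate 1 or satellite cell replicate 3 (adjusted p = 0.054 to 0.74). The 22 made 68.75% of the list, beside 20.4% of all tested genes. The median log2 fold change was -3.83, beside -0.23 over all tested genes. Calcr, the calcitonin receptor that holds satellite cells in quiescence, stood at 14218, 9206 and 13578 normalized counts in satellite cells and 7.35 and 0 in -Dox. Chrdl2, a secreted BMP antagonist, had 2097, 4009 and 5351 in satellite cells and 0 in both -Dox libraries, at least 1382-fold higher. Fgfr4 and Fgfr1, receptors of the FGFs that activate satellite cells, were at 223 and 231 against 31715, 18726 and 12457 and at 1855 and 2474 against 57209, 116457 and 120713. For neither gene did the groups come near to overlapping.

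Surface markers used to sort satellite cells differed in how far they were lost. Cd34 was at 457 and 129 in -Dox against 11597, 16637 and 13913 in satellite cells (log2 fold change -5.58 ± 0.58, adjusted p = 1.5e-04). Sdc4, a syndecan that carries FGF to its receptor, was at 31312 and 28814 against 786929, 476110 and 700880 (log2 fold change -4.44 ± 0.32, adjusted p = 3.3e-05), and Vcam1 at 5617 and 5122 against 72393, 58254 and 76110.3 (log2 fold change -3.68 ± 0.34, adjusted p = 9.0e-05). Cav1, which forms caveolae, was at 861 and 883 against 60324, 78031 and 76191 (log2 fold change -6.36 ± 0.31, adjusted p = 6.0e-06). Cd34, Cav1 and Vcam1 are made by endothelial cells as well, and the part of such cells in these differences was not tested. Other adhesion genes of the list did not differ in this way. Itgb1, the integrin β1 chain, lay within 2-fold at 16745 and 17813 against 11300.5, 19731 and 14273, and Ncam1 was at 85199 and 81174 against 46301, 48734 and 56292 with a log2 fold change of 0.72 (adjusted p = 0.037), less than the 2-fold set for a call, and this p did not pass without +Dox replicate 2, -Dox replicate 1, -Dox replicate 2 or satellite cell replicate 2 (adjusted p = 0.050 to 0.19). Peg3, a parentally imprinted gene of stem cells, also lay within 2-fold (14938 and 15302 against 16468, 16475 and 18389). Cdkn1b, the p27 inhibitor of the cell cycle, was lower in -Dox, at 260.1 and 267 against 3033, 1267 and 3480.5 (log2 fold change -3.30 ± 0.63, adjusted p = 0.003).

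Notch signalling, which depends on contact with a cell that presents a ligand, was represented mostly on the satellite cell side, with 15 of 26 tested genes called higher there and 1 in -Dox (median log2 fold change -2.22). Among the ligands, Jag1 was at 18197, 16207 and 18874 normalized counts in satellite cells against 75.4 and 54.5 in -Dox (log2 fold change -8.09 ± 0.82, adjusted p = 1.3e-04), and Dll4 at 611, 1082 and 1022 against 0 in both, at least 327-fold higher. Dll4 is also a ligand of endothelium. The receptors Notch1, Notch2 and Notch3 were all lower in -Dox, by log2 fold changes of -3.63, -3.01 and -4.66 (adjusted p = 2.6e-04, 0.0034 and 3.4e-05). Of the target genes, Heyl was at 329.9 and 550.2 against 37832, 15195 and 15912 (log2 fold change -5.71 ± 1.15, adjusted p = 0.004) and Hey1 at 0 and 1.85 against 4851, 3386 and 2861. Hes1 ranged from 257 to 3314 among the satellite cell libraries and was not called (adjusted p = 0.098). Rbpj, the DNA-binding subunit of the pathway, stood at 11181 and 12454 against 12984, 10619 and 11246. Hes6, an antagonist of Hes1 that promotes myogenic differentiation, was the member called higher in -Dox, at 4766 and 7202 against 578, 166 and 13.2 (log2 fold change 4.57 ± 1.04, adjusted p = 0.0074).

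Genes of the contractile apparatus were far higher in -Dox. Of 63 tested sarcomere genes 51 (81.0%) were called higher in -Dox and 2 (3.17%) higher in satellite cells, with a median log2 fold change of 6.93. Over all tested genes the shares were 17.2 and 20.4%. Acta1, skeletal α-actin, reached 1161240 and 1108280 normalized counts in -Dox against 9658, 4628 and 7032 in satellite cells (log2 fold change 7.32 ± 0.37, adjusted p = 6.0e-06), and the cardiac isoform Actc1, which embryonic muscle also makes, 309309 and 294738 against 820.2, 406 and 448 (log2 fold change 9.08 ± 0.56, adjusted p = 1.4e-05). The embryonic and perinatal myosin heavy chains Myh3 and Myh8 were at 57336 and 68575 and 37920.2 and 53661 in -Dox, and at 1.32, 18.8 and 5.28 and 143, 127 and 3.96 in satellite cells. Tnnc1, troponin C of slow and cardiac muscle, had 218298 and 189481 against 0, 48.3 and 56.7, and the giant protein titin (Ttn) 103111 and 102226 against 939, 893 and 340.3 (log2 fold change 7.15 ± 0.59, adjusted p = 5.8e-05). Satellite cells thus held muscle transcripts of some genes, such as Acta1 and Ttn, at a low level in every library, and next to none of others.

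Some sarcomere genes gave no count in any satellite cell library. Myom3, an M-band protein, was at 2384 and 2126 in -Dox, at least 567-fold higher, and Trim63, a ubiquitin ligase of muscle atrophy, at 1564 and 1542, at least 391-fold higher. Myom2, the related M-band protein, had 9669 and 10469.6 normalized counts in -Dox and 0, 2.68 and 0 in satellite cells. The exceptions in the list were Tpm3, a tropomyosin gene whose transcripts include forms outside muscle, lower in -Dox at 16066 and 18095 against 59865, 52088 and 105665 (log2 fold change -2.09 ± 0.35, adjusted p = 0.0017), and Mylk2, at no more than 366 normalized counts in any library, a call lost without -Dox replicate 1 (adjusted p = 0.072). Des, the intermediate filament of muscle, was present in both at 11342 and 12656 against 25179.9, 20456 and 20176 and less than 2-fold apart (log2 fold change -0.87 ± 0.28, adjusted p = 0.034), a p that did not pass without +Dox replicate 1, +Dox replicate 2, -Dox replicate 1, -Dox replicate 2 or satellite cell replicate 1 (adjusted p = 0.052 to 0.21).

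Adult fast fibre markers, which mature fibres express, summed to 396591 and 381080 normalized counts in -Dox and 18961, 13226 and 12544 in satellite cells. Of 14 members 8 (57.1%, beside 17.2% of all tested genes) were called higher in -Dox. The sum in satellite cells was thus above 0 in each library and varied by less than 2-fold between them.

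Genes of excitation-contraction coupling were also higher in -Dox in the main. Of 24 tested members 17 (70.8%, beside 17.2% of all tested genes) were called higher in -Dox (median 4.11). Ryr1, the calcium release channel, was at 4015 and 4088 against 96.1, 248 and 156 (log2 fold change 4.60 ± 0.48, adjusted p = 1.5e-04), its partner triadin (Trdn) at 7799 and 6973 against 39.5, 25.5 and 31.7 (log2 fold change 7.84 ± 0.46, adjusted p = 1.0e-05), and Atp2a1, the calcium pump of fast muscle, at 60703 and 70073 against 5424, 3395 and 3566 (log2 fold change 3.99 ± 0.68, adjusted p = 0.0017). The member called the other way, Pln, had at most 384 normalized counts, and its call was lost without +Dox replicate 1, +Dox replicate 2, -Dox replicate 1, -Dox replicate 2 or satellite cell replicate 3 (adjusted p = 0.061 to 0.19).

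Subunits of the acetylcholine receptor did not move together. Chrng, the γ subunit of the embryonic receptor, was at 42842 and 40454 in -Dox against 259, 42.9 and 11.9 in satellite cells (log2 fold change 8.63 ± 1.07, adjusted p = 3.4e-04), and Chrna1 at 162356 and 146882 against 5275, 5395 and 6906 (log2 fold change 4.72 ± 0.27, adjusted p = 9.6e-06), while Chrnb1 was lower in -Dox at 6835 and 7227 against 17675, 20136 and 16306 (log2 fold change -1.36 ± 0.24, adjusted p = 0.002). The agrin receptor was likewise split between its subunits. Lrp4, which binds agrin, was higher in -Dox (15771 and 11266 against 217, 129 and 1081), and Musk, the kinase that it activates, was higher in satellite cells (1872 and 1289.5 in -Dox against 26275, 43646 and 42119, log2 fold change -4.56 ± 0.47, adjusted p = 1.4e-04). In the ATAC-seq peak lists Musk had a promoter peak in satellite cells (5.08) and none in -Dox. In all, 4 of the 10 tested members were called higher in -Dox and 2 higher in satellite cells. These are 40 and 20%, beside 17.2 and 20.4% of all tested genes.

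The fusogens of muscle were present in -Dox. Tmem8c (myomaker) was at 96769.9 and 92571 against 969, 678 and 684 (log2 fold change 6.93 ± 0.29, adjusted p = 3.7e-06), and Gm7325, the gene now called myomixer, at 11097 and 11040.1 against 96.1, 0 and 1.32. Of the 18 tested fusion genes 7 (38.9%, beside 17.2% of all tested genes) were called higher in -Dox and 4 (22.2%, beside 20.4%) higher in satellite cells. The latter, the cell surface proteins Boc, Cdh15 and Kirrel and the Rac activator Dock1, fell to 1 and 2 called genes without -Dox replicate 1 or 2. Boc was at 318 and 260.3 against 3831, 2885 and 1926 (log2 fold change -3.32 ± 0.40, adjusted p = 2.8e-04), whereas the N-cadherin gene Cdh2 was higher in -Dox (12089 and 13617 against 886, 497 and 159.6).

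Metabolic isozymes of muscle gave 17 of 24 genes (70.8%, beside 17.2% of all tested genes) called higher in -Dox and 0 higher in satellite cells. Eno3, muscle enolase, was at 118637 and 112645 against 2588, 173 and 876 (log2 fold change 6.58 ± 0.89, adjusted p = 5.2e-04), Pgam2, muscle phosphoglycerate mutase, at 28354 and 25378 against 484, 71.0 and 270.4 (log2 fold change 6.61 ± 0.69, adjusted p = 1.5e-04), and myoglobin (Mb) at 5803 and 5273 against 129, 76.4 and 83.1 (log2 fold change 5.85 ± 0.61, adjusted p = 1.5e-04). Ckm, the muscle creatine kinase, was closer between the groups, at 10700.0 and 9588 against 1535, 525 and 1132 (log2 fold change 3.25 ± 0.72, adjusted p = 0.0063).

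The promoters of these genes were searched for the E-box CAGCTG (its own reverse complement), which Myod1 and Myog bind, and for the MEF2 box, on both strands of the 250 bases before the start. CAGCTG was found in 20 of 50 sarcomere genes with an entry in the RefSeq table (40.0%), in 12 of 21 isozyme genes (57.1%) and in 6 of 14 genes of excitation-contraction coupling (42.9%), beside 14.8% of all tested genes and 13.0% of all promoters of the table. It was found in 0 of 24 quiescence genes. The MEF2 box was found in 9 of 50 sarcomere genes (18%) and in 2.17% of all tested genes. The promoters of Myoz2, a Z-disc protein, of Pgam2 and of Chrng show how these motifs are arranged. They lie at chr3:122737906-122738155 on the minus strand, chr11:5703800-5704049 on the minus strand and chr1:89102136-89102385 on the plus strand of NCBIM37, and capitals mark CAGCTG and, in the first pair, the MEF2 box.
Myoz2: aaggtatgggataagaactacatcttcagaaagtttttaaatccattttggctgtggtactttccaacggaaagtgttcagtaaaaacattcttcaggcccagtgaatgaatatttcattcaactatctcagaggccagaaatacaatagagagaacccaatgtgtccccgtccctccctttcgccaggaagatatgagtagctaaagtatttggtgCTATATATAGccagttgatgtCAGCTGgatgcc
Pgam2: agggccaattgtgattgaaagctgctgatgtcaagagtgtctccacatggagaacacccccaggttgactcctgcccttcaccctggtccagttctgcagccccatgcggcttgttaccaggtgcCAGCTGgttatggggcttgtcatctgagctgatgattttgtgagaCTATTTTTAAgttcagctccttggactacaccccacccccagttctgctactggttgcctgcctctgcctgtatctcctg
Chrng: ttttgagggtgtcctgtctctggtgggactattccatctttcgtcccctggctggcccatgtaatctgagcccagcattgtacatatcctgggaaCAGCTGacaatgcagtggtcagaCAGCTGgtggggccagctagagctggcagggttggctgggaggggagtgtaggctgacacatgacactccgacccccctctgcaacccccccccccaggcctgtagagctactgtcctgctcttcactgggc
Myoz2 carries its MEF2 box from -33 to -24 and its E-box from -12 to -7, Pgam2 carries the E-box farther out (-125 to -120) and the MEF2 box from -80 to -71, and Chrng carries a pair of E-boxes from -155 to -150 and from -132 to -127. A match is a description of the letters and not of binding.

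Genes of cell division did not place either population plainly ahead. Of 65 tested genes of S phase 15 were called higher in -Dox and 6 higher in satellite cells, and of 75 genes of G2 and mitosis 15 and 5. These are 23.1 and 9.23% of the S phase genes and 20.0 and 6.67% of the mitotic genes, beside 17.2 and 20.4% of all tested genes, so the shares higher in -Dox were near those of all genes and the shares higher in satellite cells were lower. The first count fell to 9 and 7 without -Dox replicate 1 or 2, and the mitotic count to 8 without -Dox replicate 2, while it was 23 without satellite cell replicate 1. Rrm1, the large subunit of ribonucleotide reductase, was higher in -Dox (20410.3 and 20056 against 2532, 3201 and 2585, log2 fold change 2.87 ± 0.24, adjusted p = 6.0e-05), as were the mitotic genes Psrc1 (3328 and 3414 against 44.8, 38.9 and 42.2, log2 fold change 6.32 ± 0.33, adjusted p = 7.3e-06) and Gtse1 (2919.7 and 3209 against 57.9, 14.7 and 27.7). Pcna, the replication clamp, was lower in -Dox (2863 and 2658 against 8315, 7856 and 11579.6, log2 fold change -1.74 ± 0.29, adjusted p = 0.0015), as was the histone mRNA binding protein Slbp (-1.88 ± 0.27, adjusted p = 7.5e-04). Within the same lists, genes thus differed in opposite directions.

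Regulators of cell cycle entry and exit differed in both directions. Cdkn2a, the locus of p16 and p19Arf, was at 1118 and 1052 in -Dox and 1.32, 0 and 0 in satellite cells. It was expressed in +Dox cells as well, with 1185, 1056 and 1754 raw counts there and 1216 and 1140 in -Dox. The retinoblastoma gene Rb1 was higher in -Dox, at 4099.7 and 4483 against 750.4, 1023 and 954 (log2 fold change 2.24 ± 0.29, adjusted p = 4.0e-04). The D cyclins Ccnd1 and Ccnd2 were also higher in -Dox, by 2.61 and 3.56 on the log2 scale (adjusted p = 9.5e-05 and 5.1e-04). Cdkn1a (p21), the inhibitor linked to myogenic cell cycle exit, was abundant in both, at 42001 and 44613 against 22839, 23978 and 31411, and less than 2-fold apart (log2 fold change 0.73). Of the 13 tested members 6 were called higher in -Dox and 3, Cdkn1b, Rbl2 and Cdkn2c, higher in satellite cells. These are 46.2 and 23.1%, beside 17.2 and 20.4% of all tested genes. The count in satellite cells fell when either -Dox library was left out.

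Immediate early genes were higher in satellite cells almost throughout. Of 52 tested members 47 (90.4%, beside 20.4% of all tested genes) were called higher there and 0 in -Dox, with a median log2 fold change of -5.25. Fos had 425653, 158623 and 223702 normalized counts in the satellite cell libraries against 302 and 464 in -Dox (log2 fold change -9.46 ± 0.69, adjusted p = 3.3e-05). Egr1 was at 223193, 122739 and 217498 against 1013 and 846 (log2 fold change -7.66 ± 0.46, adjusted p = 1.2e-05), and the nuclear receptor Nr4a1 at 89016, 29555 and 42594 against 34.0 and 12.9 (log2 fold change -11.15 ± 0.84, adjusted p = 3.7e-05). Zfp36 (tristetraprolin), which destabilizes cytokine mRNAs, was at 445238, 220757 and 249002 against 1303 and 1552 (log2 fold change -7.74 ± 0.51, adjusted p = 2.2e-05). These genes are known to be induced by the dissociation of tissue as well as by growth factors, and neither was varied in these samples. Myc was still expressed in -Dox, at 3672 and 4021 against 118016, 149572 and 154469 (log2 fold change -5.19 ± 0.29, adjusted p = 9.0e-06). The heat shock gene Hspa1a was the most uneven, at 106137, 9739.5 and 15551 in satellite cells and 2.76 and 0.923 in -Dox, with satellite cell replicate 1 far above the other two. The promoters of all 52 of these genes had an ATAC-seq peak in both populations, and 46 of them were overlapped by H3K27Ac in -Dox, where the transcripts were low. Over all tested genes 83.6% had a peak in both and 69.1% overlapped H3K27Ac.

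Clock genes were also higher in satellite cells, with 13 of 20 tested (65%, beside 20.4% of all tested genes) called there and 0 in -Dox (median -2.42). Arntl, the core activator, was at 1894, 2945 and 2658 against 165 and 187 (log2 fold change -3.83 ± 0.60, adjusted p = 0.0011), its repressor Nr1d1 at 37639, 21023 and 20512 against 862 and 1026 (log2 fold change -4.80 ± 0.43, adjusted p = 7.5e-05) and Per2 at 2249, 4701 and 2491 against 141 and 173 (log2 fold change -4.33 ± 0.58, adjusted p = 4.8e-04). Activators and repressors that peak at opposite phases of the cycle were both lower in -Dox. Tef, an output factor, lay within 2-fold (2309 and 2341 against 3129, 2072 and 2029.7).

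Genes of antigen presentation and of the interferon response were low in -Dox, with 29 of 42 tested members called higher in satellite cells (13 and 19 without -Dox replicate 1 or 2). The 29 made 69.0% of the list, beside 20.4% of all tested genes. The class I gene H2-D1 was at 14058, 7988 and 15888 in satellite cells against 57.9 and 43.4 in -Dox (log2 fold change -7.96 ± 0.57, adjusted p = 3.1e-05), and Tapbp, which loads peptides on class I, at 6552, 7039.9 and 6866 against 1234 and 1355 (log2 fold change -2.40 ± 0.27, adjusted p = 2.2e-04). B2m, the light chain of class I, was closer, at 31118, 19155 and 50837 against 11657 and 11139.8, a call lost without -Dox replicate 1, -Dox replicate 2 or satellite cell replicate 3 (adjusted p = 0.050 to 0.13). Cd74, the class II invariant chain of professional antigen-presenting cells, was at 18842, 8662 and 19085 against 21.1 and 16.6 (log2 fold change -9.67 ± 0.97, adjusted p = 1.3e-04). Cd74 is itself a member of the haematopoietic list, and without it the sums were 34595, 6866 and 16163 against 647 and 1014. Psme2, a proteasome activator, was the member called higher in -Dox (9061 and 8758 against 4038, 3329.6 and 4102), a call lost without -Dox replicate 1 (adjusted p = 0.053). The interferon-stimulated element (GAAA, any 2 bases, GAAA, on either strand) was found in the promoters of 15 of 34 matched members (44.1%), beside 3.15% of all tested genes.

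Of 29 tested chemokine and cytokine genes 21 (72.4%, beside 20.4% of all tested genes) were called higher in satellite cells and 0 in -Dox. Their median log2 fold change was -5.32 (-4.86 with groups at 0 counted as 3 counts). Cxcl1 was at 196142, 191874 and 237708 against 360.3 and 482 (log2 fold change -8.95 ± 0.44, adjusted p = 6.0e-06), and Cxcl2, a neutrophil attractant as well, at 4079.7, 7245 and 12993 against 0, at least 2934-fold higher. Osmr, the oncostatin M receptor, was at 24598, 21617 and 28416 against 486 and 399 (log2 fold change -5.81 ± 0.59, adjusted p = 1.4e-04) and Il6 at 3382, 6096 and 7342 against 281 and 105 (log2 fold change -4.86 ± 0.60, adjusted p = 3.5e-04).

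Among matrix genes 24 of 44 collagens and laminins were called higher in satellite cells and 6 higher in -Dox, with a median of -2.97. These are 54.5 and 13.6%, beside 20.4 and 17.2% of all tested genes. The count in -Dox fell without -Dox replicate 2. Col1a1, the main fibrillar collagen of fibroblasts, was at 39900.5, 36016 and 12711 against 18.4 and 19.4 (log2 fold change -10.60 ± 0.72, adjusted p = 2.4e-05). The part of fibroblasts in this difference was not tested. Col15a1, a basement membrane collagen, was at 3127, 2903 and 1604 against 0, at least 921-fold higher. Lama2, a chain of the muscle basal lamina, differed less, at 15471, 12089 and 12246 against 2622 and 1708 (log2 fold change -2.62 ± 0.44, adjusted p = 0.0015). On the -Dox side were Col4a5, a chain of basement membrane collagen (3116 and 4322 against 96.1, 146 and 161, log2 fold change 4.79 ± 0.42, adjusted p = 7.0e-05), Col18a1 (1.54 ± 0.32, adjusted p = 0.0047) and Col25a1, a transmembrane collagen of developing muscle (222 and 344 against 0, 1.34 and 1.32). Matrix-degrading enzymes and their inhibitors gave 45.5% higher in satellite cells and 13.6% higher in -Dox, beside 20.4 and 17.2% of all tested genes. These shares are 10 and 3 of 22 genes, and the 3 became 5 without satellite cell replicate 1. Of these, the gelatinase gene Mmp2 was at 2002 and 2358 against 9821, 18498 and 15104 (log2 fold change -2.73 ± 0.34, adjusted p = 3.5e-04), while the inhibitor Timp1 (7672 and 7442 against 1546, 939.6 and 1593, log2 fold change 2.47 ± 0.33, adjusted p = 4.4e-04) and Mmp11 (4442 and 4920.1 against 344, 361 and 98.9) were higher in -Dox.

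Some genes of body position and of developmental stage differed between the populations. Of 18 tested Hox genes 9 (50%) were called higher in satellite cells and 2 (11.1%) in -Dox, beside 20.4 and 17.2% of all tested genes. Their median was -8.40 (-3.89 with groups at 0 counted as 3 counts). The satellite cells of the ATAC-seq came from hind limb, and the muscles of the RNA-seq libraries are not named. Hoxc10, a gene of the hindlimb level, was at 3920.4, 2182 and 2638 against 0 in -Dox, at least 1054-fold higher, and Hoxa10 at 2596, 412 and 413 against 0, at least 413-fold. The hindlimb factor Tbx4 was at 922, 448 and 876 against 0 (at least 271-fold). Hoxb9 was called higher in -Dox, a call lost without -Dox replicate 2 (adjusted p = 0.051). All 18 of these Hox promoters overlapped H3K27me3 in -Dox, beside 17.4% of all tested genes, and 3 overlapped H3K27Ac.

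Of 21 tested regulators of embryonic and adult stage 5 were called higher in -Dox and 7 higher in satellite cells. These are 23.8 and 33.3%, beside 17.2 and 20.4% of all tested genes. Hmga2, a chromatin protein of fetal progenitors, was at 10079 and 10739 against 10.5, 14.7 and 18.5 (log2 fold change 9.47 ± 0.35, adjusted p = 3.3e-06), and the fetal mRNA-binding proteins Igf2bp1 and Igf2bp3 at 6848 and 8388 against 1.32, 2.68 and 6.59 and at 2548 and 3409.9 against 97.4, 50.9 and 60.7. Factors of the Nfi family, of which Nfix drives the switch to fetal myogenesis, were higher in satellite cells. Nfia was at 110169, 90320.4 and 105059 against 2693 and 3313 (log2 fold change -5.08 ± 0.29, adjusted p = 9.6e-06), and Nfib and Nfix differed by -4.07 and -2.81 on the log2 scale (adjusted p = 1.6e-04 and 5.5e-04). The promoter peak of Hmga2 had a fold enrichment of 23.7 in -Dox and 3.32 in satellite cells. That of Igf2bp1 was weak (3.70) and listed only in -Dox, the longer of the peak lists.

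Imprinted genes, many of which promote fetal growth, gave 10 of 29 called higher in -Dox and 6 higher in satellite cells (1 and 2 without -Dox replicate 1 or 2), that is 34.5 and 20.7% beside 17.2 and 20.4% of all tested genes. Igf2 was at 89897 and 102790 against 5419.9, 2280.1 and 3057 (log2 fold change 4.75 ± 0.41, adjusted p = 6.9e-05) and H19, the non-coding RNA of the same cluster, at 19050.2 and 23093 against 595, 377 and 371 (log2 fold change 5.56 ± 0.39, adjusted p = 2.8e-05). Both genes of that cluster, which are expressed from opposite parental copies, were therefore higher in -Dox. Dlk1 was higher as well (2597 and 2992 against 36.9, 2.68 and 21.1, log2 fold change 7.10 ± 0.92, adjusted p = 4.3e-04), while Meg3, its reciprocally imprinted neighbour, lay within 2-fold (16497 and 17241 against 15267, 16192 and 24880.4).

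Among secreted signals and their receptors the calls in satellite cells outnumbered those in -Dox. In the TGF-β and BMP families 23 of 49 tested genes were called higher there (12 and 11 without -Dox replicate 1 or 2) and 2 in -Dox. The 23 and 2 made 46.9 and 4.08% of the list, beside 20.4 and 17.2% of all tested genes. Bmp4 was at 8292, 7571 and 5774 against 43.2 and 125 (log2 fold change -6.42 ± 0.57, adjusted p = 7.6e-05) and Tgfbr3, the co-receptor betaglycan, at 78304, 78033 and 26828 against 772 and 422 (log2 fold change -6.68 ± 0.73, adjusted p = 1.9e-04). Mstn (myostatin), which limits muscle growth, was a member higher in -Dox, at 31468 and 27760.0 against 0, 13.4 and 169 (log2 fold change 8.93 ± 1.36, adjusted p = 9.5e-04). The other was Nog, at most 74.4 normalized counts, a call lost without +Dox replicate 2, -Dox replicate 1, -Dox replicate 2 or satellite cell replicate 3 (adjusted p = 0.050 to 0.1). Of 45 growth factors and receptors 20 were called higher in satellite cells and 6 in -Dox. These are 44.4 and 13.3%, beside 20.4 and 17.2% of all tested genes. Egfr was at 14738, 12895 and 15176 against 739 and 426 (log2 fold change -4.61 ± 0.59, adjusted p = 4.0e-04) and Igf1 lower in -Dox by -4.39 ± 0.62, adjusted p = 6.7e-04, while Pdgfc (5.57 ± 0.75, adjusted p = 5.0e-04) and Fgf7 (3.73 ± 0.46, adjusted p = 3.2e-04) were higher there. Pdgfra, the receptor on which the precursors had been sorted, was at 0 and 0 in -Dox and 176, 245 and 216 in satellite cells.

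In the Wnt pathway 11 of 45 genes were called higher in satellite cells (4 and 5 without -Dox replicate 1 or 2) and 3 in -Dox, and the first share, 24.4%, is near the 20.4% of all tested genes. The R-spondin receptor Lgr4 was at 14540.3, 11268 and 7789 against 2343 and 2049 (log2 fold change -2.35 ± 0.41, adjusted p = 0.0019) and the nuclear effector Tcf7l2 at 9056, 9252 and 8715 against 3417 and 2953 (log2 fold change -1.50 ± 0.26, adjusted p = 0.0018). The members called higher in -Dox, Fzd3, Wnt5a and Wnt16, numbered 1 and 0 without -Dox replicate 1 or 2.

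Genes of oxidative metabolism were higher in -Dox. Of 79 tested subunits of the respiratory chain and ATP synthase 67 were called higher in -Dox and 0 higher in satellite cells (median 2.15). The 67 made 84.8% of the list, beside 17.2% of all tested genes. Atp5o was at 58792 and 53625 against 6077, 6606 and 7479 (log2 fold change 3.06 ± 0.30, adjusted p = 1.1e-04), Ndufa3 of complex I at 7355 and 6994 against 714, 295 and 1008 (log2 fold change 3.42 ± 0.50, adjusted p = 7.7e-04) and Cox6a2, a heart and muscle isoform of complex IV, at 3079 and 2400.0 against 32.9, 28.1 and 35.6 (log2 fold change 6.40 ± 0.48, adjusted p = 3.7e-05). Most of these transcripts are short, and in the shortest of 5 equal groups of all tested genes, with exons of at most 1984 bases, the median log2 fold change was 0.32 with 26.3% called higher in -Dox, beside -0.66 and 11.3% in the longest. Library length bias and cell source cannot be told apart here.

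Cholesterol synthesis gave 10 of 23 genes higher in -Dox and 3 higher in satellite cells, 43.5 and 13.0% beside 17.2 and 20.4% of all tested genes. Dhcr7, a reductase of the last steps of the pathway, was at 8127 and 6800.4 against 900.5, 531 and 438 (log2 fold change 3.58 ± 0.38, adjusted p = 1.6e-04). The regulator Srebf2 was lower in -Dox (-2.17 ± 0.40, adjusted p = 0.0027). In serine synthesis both named enzymes were higher in -Dox, with Phgdh at 13216 and 12774 against 1026, 2588 and 1846 (log2 fold change 2.84 ± 0.35, adjusted p = 3.5e-04) and Psat1 at 23291 and 16873 against 1479.7, 4421 and 4129, and the asparagine synthetase gene Asns at 11942 and 10041 against 1361, 714 and 571 (log2 fold change 3.64 ± 0.40, adjusted p = 1.8e-04). Atf4, the transcription factor of that response, was lower in -Dox at the transcript level (9926 and 9552 against 32154, 25118 and 34401, log2 fold change -1.65 ± 0.28, adjusted p = 0.0017). Of the 25 tested members 7 were higher in -Dox and 3 in satellite cells, 28 and 12% beside 17.2 and 20.4% of all tested genes. The count in satellite cells was 5 without satellite cell replicate 1.

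Redox genes did not move together, with 9 of 27 (33.3%) higher in -Dox and 14 (51.9%) higher in satellite cells. Over all tested genes the shares were 17.2 and 20.4%. Gpx3, the secreted glutathione peroxidase, was at 1198900, 343384 and 636618 in satellite cells against 8690.2 and 9673 (log2 fold change -6.31 ± 0.59, adjusted p = 9.4e-05), and the heme oxygenase gene Hmox1 at 91336, 94969 and 176997 against 5767 and 4433 (log2 fold change -4.57 ± 0.43, adjusted p = 9.6e-05). The metallothioneins Mt1 and Mt2 were also lower in -Dox (-3.34 ± 0.69, adjusted p = 0.0048, and -4.23 ± 0.65, adjusted p = 0.001). On the -Dox side were the quinone reductase Nqo1, at 17413 and 16507 against 197, 177 and 452 (log2 fold change 5.94 ± 0.44, adjusted p = 3.4e-05), and the peroxiredoxins Prdx2 and the mitochondrial Prdx3 (2.45 ± 0.32, adjusted p = 4.1e-04, and 2.40 ± 0.26, adjusted p = 1.8e-04).

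Genes of translation were prominent among those shown to be alike. Of 78 tested ribosomal protein genes 30 lay within 2-fold, beside 4.16% of all tested genes. That class needs a narrow interval, and the median half-width over all tested genes was 1.32 on the log2 scale. Membership thus depends on precision as well as on likeness. In this list 4 genes (5.13%) were called higher in -Dox and 3 (3.85%) higher in satellite cells, beside 17.2 and 20.4% of all tested genes. The median log2 fold change was 0.07. Rpl4 was at 135917 and 116583 against 156404, 169070 and 177036 (log2 fold change -0.41) and Rpl3 at 128252 and 120099 against 150235, 145839 and 163381 (-0.30). With a trend of length and GC content removed, both moved away from 0, Rpl4 to just past 2-fold and called lower in -Dox (adjusted p = 0.012) and Rpl3 to -0.84 (adjusted p = 0.016), and the list gave 2 genes higher in -Dox and 6 higher in satellite cells. The calls in this list changed with the libraries, to 2 higher and 0 lower in -Dox without -Dox replicate 1, to 2 and 0 without -Dox replicate 2 and to 2 higher without satellite cell replicate 2. Several ribosomal protein genes share sequence with processed pseudogenes, so their counts are uncertain where reads could be split.

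The most abundant genes within 2-fold were, beside ribosomal proteins (Rpl3, Rpl4, Rps6 and Rps19) and the ribosomal RNA locus Rn45s, of general function. The 14-3-3 adaptors Ywhaz (117825 and 109673 against 112907, 146865 and 140640) and Ywhae (84526 and 78920.2 against 48028, 73706 and 95858), the mitochondrial ADP/ATP carrier Slc25a5 (112699 and 97821 against 77058, 148979 and 155832), ferritin light chain (Ftl1) and nucleophosmin (Npm1, 96933 and 89549.6 against 48719, 92646 and 90937) were among them. Their satellite cell values spread more than their -Dox values, with satellite cell replicate 1 the lowest for Npm1, Slc25a5, Ywhae and Ywhaz. In satellite cells 12.3% of counts fell on the 617 genes within 2-fold, and in -Dox 13.8%.

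Genes effectively absent from 1 population were taken by counts alone, as at most 3 counts in every library of 1 group and at least 500 in every library of the other. By this measure 96 genes were lacking in -Dox, of which 54 were also at or below 3 counts in all 3 +Dox libraries, and 34 were lacking in satellite cells, of which 10 had at least 500 counts in every +Dox library. Those most abundant in satellite cells were the transporter gene Slc10a6 (27286, 9794 and 21412), the matrix proteoglycan gene Fmod (19388, 13569 and 17099), Hspa1a, the sialidase gene Neu2 (5404, 19200.2 and 20984) and the matrix gene Dpt (9349, 50285 and 13065), all at no more than 2.76 normalized counts in either -Dox library. Those most abundant in -Dox were Myom2, Gm14635 (6359.6 and 6842), Adprhl1 (5050.0 and 5204), the uroplakin gene Upk1b (6121 and 6666) and Tceal7 (6598 and 6328), which is expressed in developing muscle. None of these 5 exceeded 2.68 normalized counts in a satellite cell library.

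The genes with the largest differences among abundant genes included several outside the lists. On the -Dox side Tceal7, Upk1b and Adprhl1 were at least 1626, 1608 and 1289.6-fold higher, followed by Prr32, Tcp11x2 and Fn3k at 2074 and 1798, 2211 and 1604 and 1435 and 1197 normalized counts against 0 in all satellite cell libraries. Txlnb, a muscle syntaxin-binding protein, was at 4096 and 4147 against 0, 1.34 and 1.32 and R3hdml at 2996 and 3159.7 against 0, 1.34 and 0. On the satellite cell side Slc10a6 was at least 7056-fold, Fmod at least 6038-fold and the plasma adhesion protein gene Vtn (8645, 9730.1 and 10331) at least 3463-fold higher. Fmod is also a member of the tenocyte list. With them were the endothelial adhesion gene Esam (3544, 3626 and 4786), of the endothelial list, the endothelin receptor gene Ednrb (4107, 3926 and 3449), the cartilage and tendon gene Chad (4917, 1126 and 3779.9), the inflammatory caspase gene Casp4 (5412, 1527 and 2466) and Gstt1 (3893, 2692 and 3086), all without a count in -Dox.

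**Figure D4:**
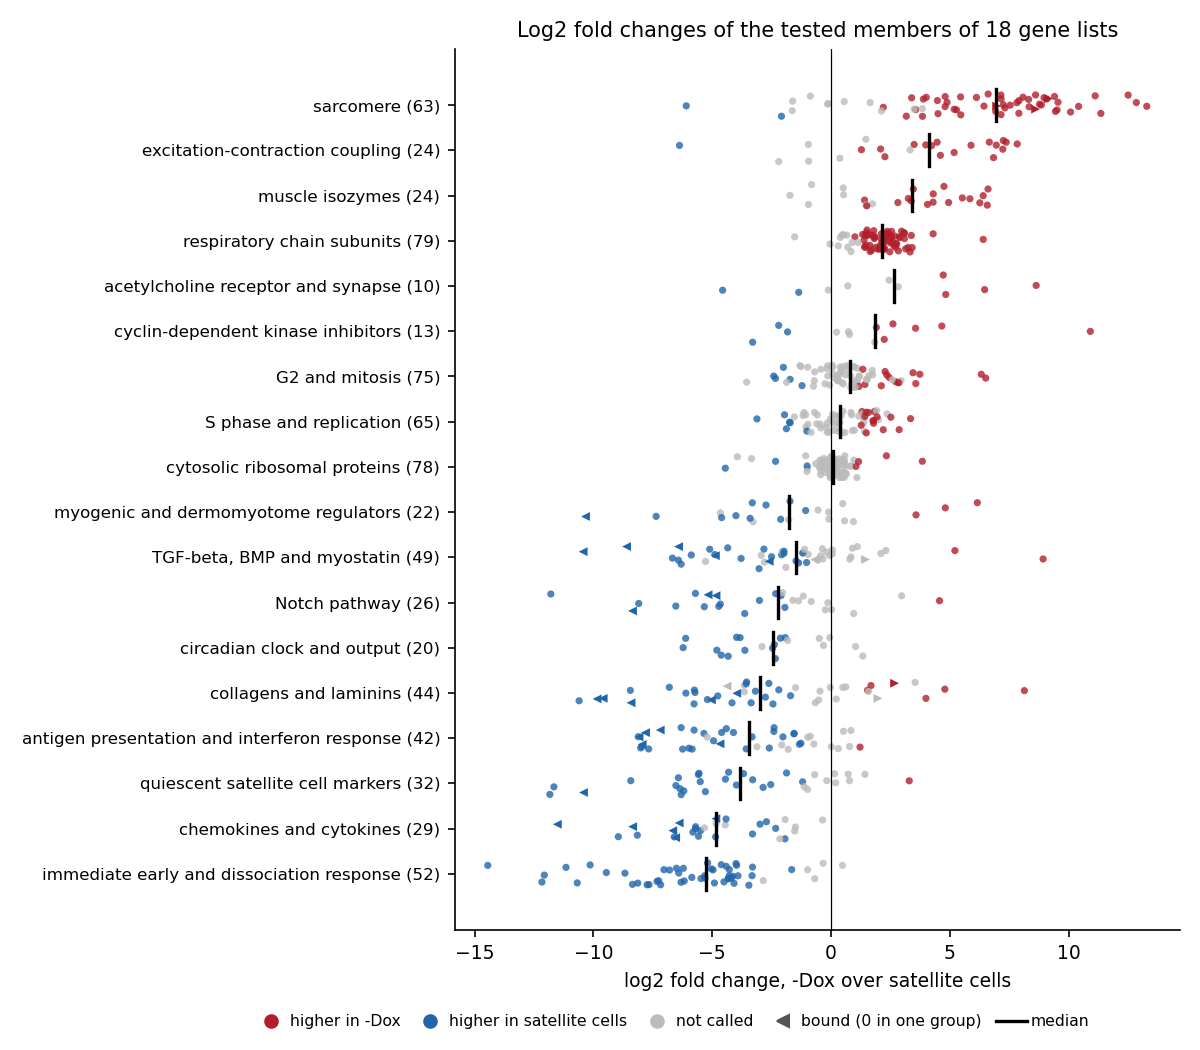
Log2 fold change (-Dox over satellite cells) of each tested member of 18 gene lists, with the list median in which a group without counts is set to 3 counts per library, and arrows for members that are bounds. Sarcomere, coupling, isozyme and respiratory chain lists lie to the -Dox side, immediate early, quiescence and chemokine lists to the satellite cell side, and ribosomal proteins around 0.

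The promoter state of the classes was described over 13488 tested genes with a start site in the mm9 annotation, with no test, as there is 1 merged peak list per population. An ATAC-seq peak within 1 kb was listed at 90.2% of them in -Dox and 85.0% in satellite cells, from 145880 and 73512 distinct peak regions, so the lists differ in how much was called. For the genes within 2-fold the shares were 99.3% and 98.8%, and 96.2% of them overlapped H3K27Ac in -Dox. Genes at least 16-fold higher in -Dox (471 with a start site) had a peak at 82.0% in -Dox and 56.7% in satellite cells, and 125 of them, 26.5% (exact binomial 95% interval 22.6 to 30.8%), had one only in -Dox. Genes at least 16-fold higher in satellite cells (1128) had a peak at 70.7% in -Dox and 67.6% in satellite cells, and 73, 6.47% (5.11 to 8.07%), had one only in satellite cells. Most genes far higher in satellite cells thus had a listed promoter peak in -Dox cells also. Of the same genes 51.4% overlapped H3K27me3 and 19.9% H3K27Ac in -Dox, against 17.4% and 69.1% of all tested genes. For genes at least 16-fold higher in -Dox these shares were 20.0% and 67.3%.

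**Figure D5:**
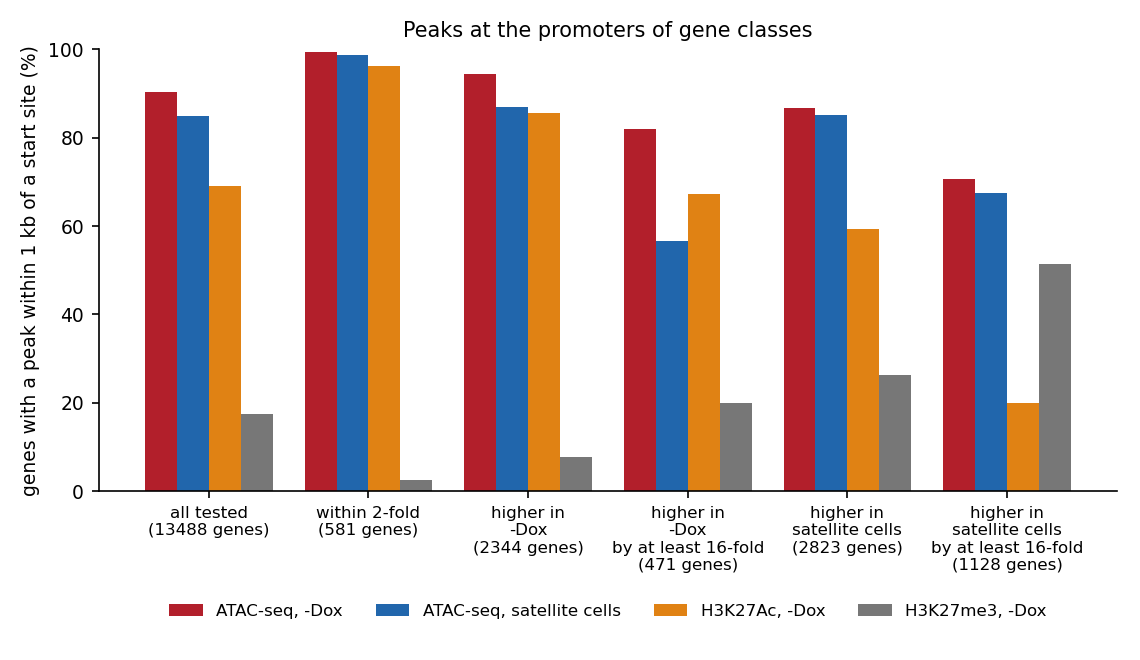
Percent of genes with a listed peak within 1 kb of the start site, for 6 classes of genes (bars start at 0) and 4 peak lists, namely ATAC-seq in -Dox and in satellite cells, and H3K27Ac and H3K27me3 in -Dox. Genes at least 16-fold higher in satellite cells stand out by H3K27me3 at 51.4% and H3K27Ac at 19.9%.

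The gene groups differed in this respect. Over all tested genes 90.2% had a peak in -Dox and 85.0% in satellite cells, while 69.1% overlapped H3K27Ac and 17.4% H3K27me3 in -Dox. Of 61 sarcomere genes 44 had a peak in -Dox and 30 in satellite cells, 17 of them in -Dox only, and 47 overlapped H3K27Ac. Myh3 is an example, with a fold enrichment of 34.2 in -Dox and no peak listed in satellite cells. Of 31 quiescence genes, mostly low in -Dox, 29 had a peak in -Dox and 30 in satellite cells, and 23 overlapped H3K27Ac. Such shares are near or above those of all tested genes and so are not particular to this list. Calcr was an exception, with a peak in satellite cells only (12.5) and H3K27me3 in -Dox. Hey1, whose transcript was close to 0 in -Dox, had a peak in both lists (35.3 in -Dox and 15.6 in satellite cells), as did Fgfr4 (4.62 and 4.69). Of 20 endothelial genes 14 had a peak in -Dox and 8 in satellite cells, the population in which their transcripts were found, and 11 overlapped H3K27me3 in -Dox.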

How the data were processed

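RNA-seq of iPax7 cells 3 days after Dox withdrawal (2 libraries) and of satellite cells (3) was compared, with 3 +Dox libraries in the fit. The authors deposited raw read counts per gene, made per the labels with Trimmomatic 0.32, TopHat2 2.0, Bowtie2 2.2 or 2.2.6 and HTSeq 0.6 on mm9, and the labels also name edgeR, Picard and MACS2 2.0.10. Strand use in counting is not given in the sources used here, so overlapping antisense genes cannot be told apart. HTSeq's summary rows (not unique, ambiguous and the like) were dropped. Counts were normalized by TMM and tested with edgeR 4.0.16 (glmQLFit, glmQLFTest) in R 4.3.3 after filterByExpr, as -Dox minus satellite cells, with Benjamini-Hochberg adjustment over all tested genes. A call needed adjusted p below 0.05 and at least 2-fold. Errors beside log2 fold changes are SE. Normalized counts are counts divided by the effective library size and brought back to the scale of counts by that size's geometric mean over libraries. A group at 0 was given 3 counts per library for lower bounds, which cover counting error only.

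ATAC-seq peaks were called by the authors with MACS2 on merged replicates and deposited with a fold enrichment and a −log10 q-value per peak. H3K27Ac and H3K27me3 regions of -Dox were deposited as lists without replicates and used by position only. Windows were 1 kb to either side of GENCODE M1 start sites on NCBIM37, which is mm9. Promoter sequences are RefSeq's (GRCm38.p6), found in NCBIM37 by exact match, and 11284 of 14836 tested genes had one.

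The comparison, the 42 gene lists and the tests were chosen with earlier results of these data known. Some genes that the rule below names are not reported here. Named genes are all myogenic regulators, the 15 largest calls in each direction with separated groups and a mean of at least 1000, up to 6 members per list (most changed and most abundant) with any member called against its list, the 10 most abundant within 2-fold and the 5 most abundant at the floor of each group. A further 49 genes, such as Cd34, Notch1, Ttn, Myc, H2-D1, Pecam1 and Rgs5, were chosen after their values were seen. The histone and motif descriptions were added after the data were seen. Same-numbered -Dox and satellite cell libraries did not deviate together (r = 0.0031 and 0.020), so replicate numbers were not taken as pairs. No replicates were duplicates, since their counts differed by 52.7 (-Dox) and 271 to 444 (satellite cells) times the sampling variance. The test was checked on simulated data. Alternatives used DESeq2 1.42.0, limma 3.58.1, other factors, filters and thresholds, a replicate block and leaving out each library.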

Additional observations from a re-analysis of the deposited data

How the results depend on the processing

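The main counts, 2548 genes higher in -Dox, 3031 higher in satellite cells and 617 within 2-fold, ranged from 1633 to 2808, from 1571 to 3194 and from 75 to 824 when a library was left out, the lowest values being those without a -Dox library, which leaves that group with 1 library assumed to vary like the others. Testing against a 2-fold difference (glmTreat) gave 1594 and 1993 genes, and a 4-fold threshold 1499 higher in -Dox and 2220 in satellite cells. With a replicate block 2302 and 2433 genes were called over 8 libraries and 2247 and 2587 over 5, and 169 genes lay within 2-fold over 5. The numbers share no known source, so the pairing carries no design. DESeq2 called 2746 and 3711 genes and limma-voom 3044 and 3396. Without scaling factors the calls were 2866 and 2657, so that 51.9% rather than 45.7% of calls were higher in -Dox, and the median of all genes moved from -0.23 to -0.06. Removing a length and GC trend gave 2340 and 2948, and 646 within 2-fold, of which 368 were also among the 617. At 10 and 100 counts in place of 3 and 500, 332 genes were at the floor in -Dox and 160 in satellite cells. Among peaks with −log10 q of at least 10, 35.2% of genes at least 16-fold higher in -Dox had a promoter peak only there. For the 330 named genes tested, 5822 combinations of a called gene and a setting kept the call, 270 lost it and 0 reversed it, and 31 combinations of a gene not called gained one. Of 291 called named genes 59 lost the call without at least 1 library. The interval width and the 2 -Dox libraries limit calls, and not only near 2-fold. In the simulated data 200 of 14601 genes were changed. Of these changes 0% at 2-fold, 24.3% at 4-fold and 70.4% at 16-fold were called. Far more genes were called in the real data, so these shares need not hold there.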

Other observations

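A few cardiac and mesodermal genes were counted in -Dox and not in satellite cells. Hand1, Gata4 and the cardiac myosin gene Myh6 stood at 208 and 252, 358 and 281 and 389.7 and 606 normalized counts in -Dox and at 0 in every satellite cell library, at least 57.8, 80.4 and 125-fold higher. Hand1 (189, 219 and 252) and Gata4 (612, 783 and 423) were present in the +Dox libraries as well, and Myh6 was at no more than 0.741 there. Of 9 tested cardiac markers 3 were called higher in -Dox, beside 17.2% of all tested genes. The intermediate filament gene Nes, made by regenerating muscle and neural progenitors, was at 11057 and 11886 against 154, 231 and 328 (log2 fold change 5.59 ± 0.40, adjusted p = 3.1e-05). Spp1 (osteopontin), made by myoblasts and by macrophages, was at 383372 and 342027 in -Dox against 9498, 1901 and 1365 (log2 fold change 6.41 ± 0.79, adjusted p = 3.2e-04), with satellite cell replicate 1 the highest of its group. Pluripotency genes showed no shift, with 1 of 7 tested members, Klf5, called higher in -Dox and 1, Tbx3, higher in satellite cells. The call of Klf5 was lost without -Dox replicate 2 (adjusted p = 0.079).

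Glial markers, which Schwann cells of muscle nerves express, were present in satellite cells, where 7 of 12 tested members were called higher, 58.3% beside 20.4% of all tested genes. Erbb3, a neuregulin receptor, was called higher in -Dox (2536 and 2968 against 142, 13.4 and 166, log2 fold change 4.68 ± 1.03, adjusted p = 0.0063). The Y-linked gene Kdm5d was at 591, 497 and 882 in satellite cells and 0 in both -Dox libraries, but -Dox cells did not lack Y-linked transcripts, with Ddx3y at 4349.7 and 4499 against 26498, 44877 and 44183, Eif2s3y at 3682 and 3725 against 5512, 5533 and 5899 and Uty at 1239.7 and 878 against 2199.8, 2340.4 and 1844. Of these, Kdm5d and Ddx3y were called and Eif2s3y and Uty were not. In the list of limb, head and trunk patterning 5 of 32 tested genes were called higher in -Dox and 4 in satellite cells. These are 15.6 and 12.5%, beside 17.2 and 20.4% of all tested genes. Gli1, a target of Hedgehog signalling, was at 1107, 509 and 429.9 in satellite cells against 0 (at least 247-fold). Tbx15, a limb and muscle factor, was at 4008 and 4679 in -Dox against 274, 752 and 483 (log2 fold change 3.11 ± 0.48, adjusted p = 0.001). Prrx1, a gene of limb mesenchyme, was at 2812 and 4248 against 2693, 899 and 2077 and not called.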
